A study of Mus musculus with 24 samples.

Results

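A set of 6 genes that regulate or belong to the Ras family of small GTPases was followed through the suprachiasmatic nucleus (SCN) of the mouse after a light pulse. They were chosen by symbol from the deposited table: Rasgrp1 and Rasgrp2, Rasgrf1 and Rasgrf2, and Rasd1 and Rasd2, which makes 6 of the 18193 genes with a probe set of 1 symbol. Together they have 17 probe sets, and for each gene the probe set that is brightest on average leads. All 6 leading probe sets passed the filter of a log2 value above 4 on at least 4 arrays, although Rasgrp2 did so only through 6 arrays of 1 batch.

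Ras proteins are switches that are on when they hold GTP and off when they hold GDP, and exchange factors turn them on by loading GTP. RasGRF proteins are exchange factors that calcium and calmodulin stimulate, RasGRP proteins are exchange factors with binding domains for calcium and diacylglycerol, and both link calcium entry in neurons to the RAF, MEK and ERK kinases. In the SCN, the seat of the master circadian clock in the hypothalamus, glutamate released by retinal fibres activates this cascade at night and the clock shifts. Rasd1 (Dexras1) and Rasd2 (Rhes) are Ras-like GTPases of their own; Dexras1 was found as a transcript induced by dexamethasone and is known in mice to modify the clock's response to light, and Rhes is best known from the striatum.

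All mice were C57BL/6, obtained at 8 weeks of age and held in constant dim red light for at least 7 days. Mice of the light groups received 30 min of light at a time that advances the clock, those of the sham groups a sham treatment, and all were killed 3.5 h later. Laser microdissection took the ventral part (the core), the central part and the dorsal part of the SCN from stained sections, and RNA was amplified and hybridised to 1 Affymetrix array per sample. This gave 6 groups with 4 arrays each: arrays 1 and 2 of each group belong to amplification and labelling batch A, and arrays 3 and 4 to batch B. Whether arrays share an animal or animals were pooled is not in the labels, so p-values measure only the spread between these samples. In tissue of this kind, fewer cells of a type and less RNA per cell cannot be told apart.

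Batch A had array medians of 3.52 to 3.62 and batch B of 4.81 to 5.07 on the log2 scale, so values are compared within a batch or with the batch as a term. Array 4 of the dorsal light group stands apart: its median correlation with the other arrays of batch B was 0.913, against 0.977 to 0.987 for the others, and its Gapdh control probe sets differed by 5.41 between the 3′ and 5′ ends, against 0.887 to 1.08. Where it decides a call or a direction described here, the value without it is given too. For ventral against dorsal SCN the tissue check followed the labels, with Vip, the peptide of ventral SCN neurons, higher in the ventral than in the dorsal SCN by 3.44 ± 0.298 (SE) and Avp, the peptide of dorsal SCN neurons, lower (-1.43 ± 0.249). Not all markers did so: of 7 markers of SCN core neurons 4 passed as higher and 2 as lower in the ventral SCN. Against the central SCN, Vip (0.55 ± 0.298) and Avp (0.44 ± 0.249) did not pass. Grp, also a core marker, was higher in the ventral than in the dorsal SCN (1.585 ± 0.141) but lower than in the central (-0.89 ± 0.141). The synaptic gene Nptx1 rose with light in the ventral (3.33 ± 0.235), central (3.06 ± 0.235) and dorsal SCN (2.20 ± 0.235). Per2 rose in the ventral (2.19 ± 0.269) and central SCN (1.48 ± 0.269) but missed the threshold in the dorsal SCN (1.27 ± 0.269, adjusted p = 0.0539).

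The question of the light comparison is which of these genes the pulse changed in each region. Of the 6 leading probe sets 1 passed the test in the ventral SCN, that of Rasgrp1, which fell; over all 13494 genes tested, 0.719% passed there. None of the 6 passed in the central SCN, in the dorsal SCN or averaged over the regions (limma, adjusted p under 0.05). Over all genes, 0.385%, 0.178% and 0.408% passed in these 3 comparisons. At an unadjusted p under 0.05, 1 of the 6, Rasgrp1, did in each of them. The share of all genes at that unadjusted threshold is not given, so counts at an unadjusted p, here and below, have no background beside them. The median of the 6 light effects was -0.17 in the ventral, -0.05 in the central and -0.08 in the dorsal SCN, against -0.03, -0.08 and -0.03 over all genes tested. A test of whether the light effect differs between regions passed for none of the 6 (unadjusted p under 0.05 for 0 of 6) and for 0.00741% of all genes. A dimmer probe set of Rasgrf1, tested in a fit over probe sets, rose with light in the ventral SCN.

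**Figure D1:**
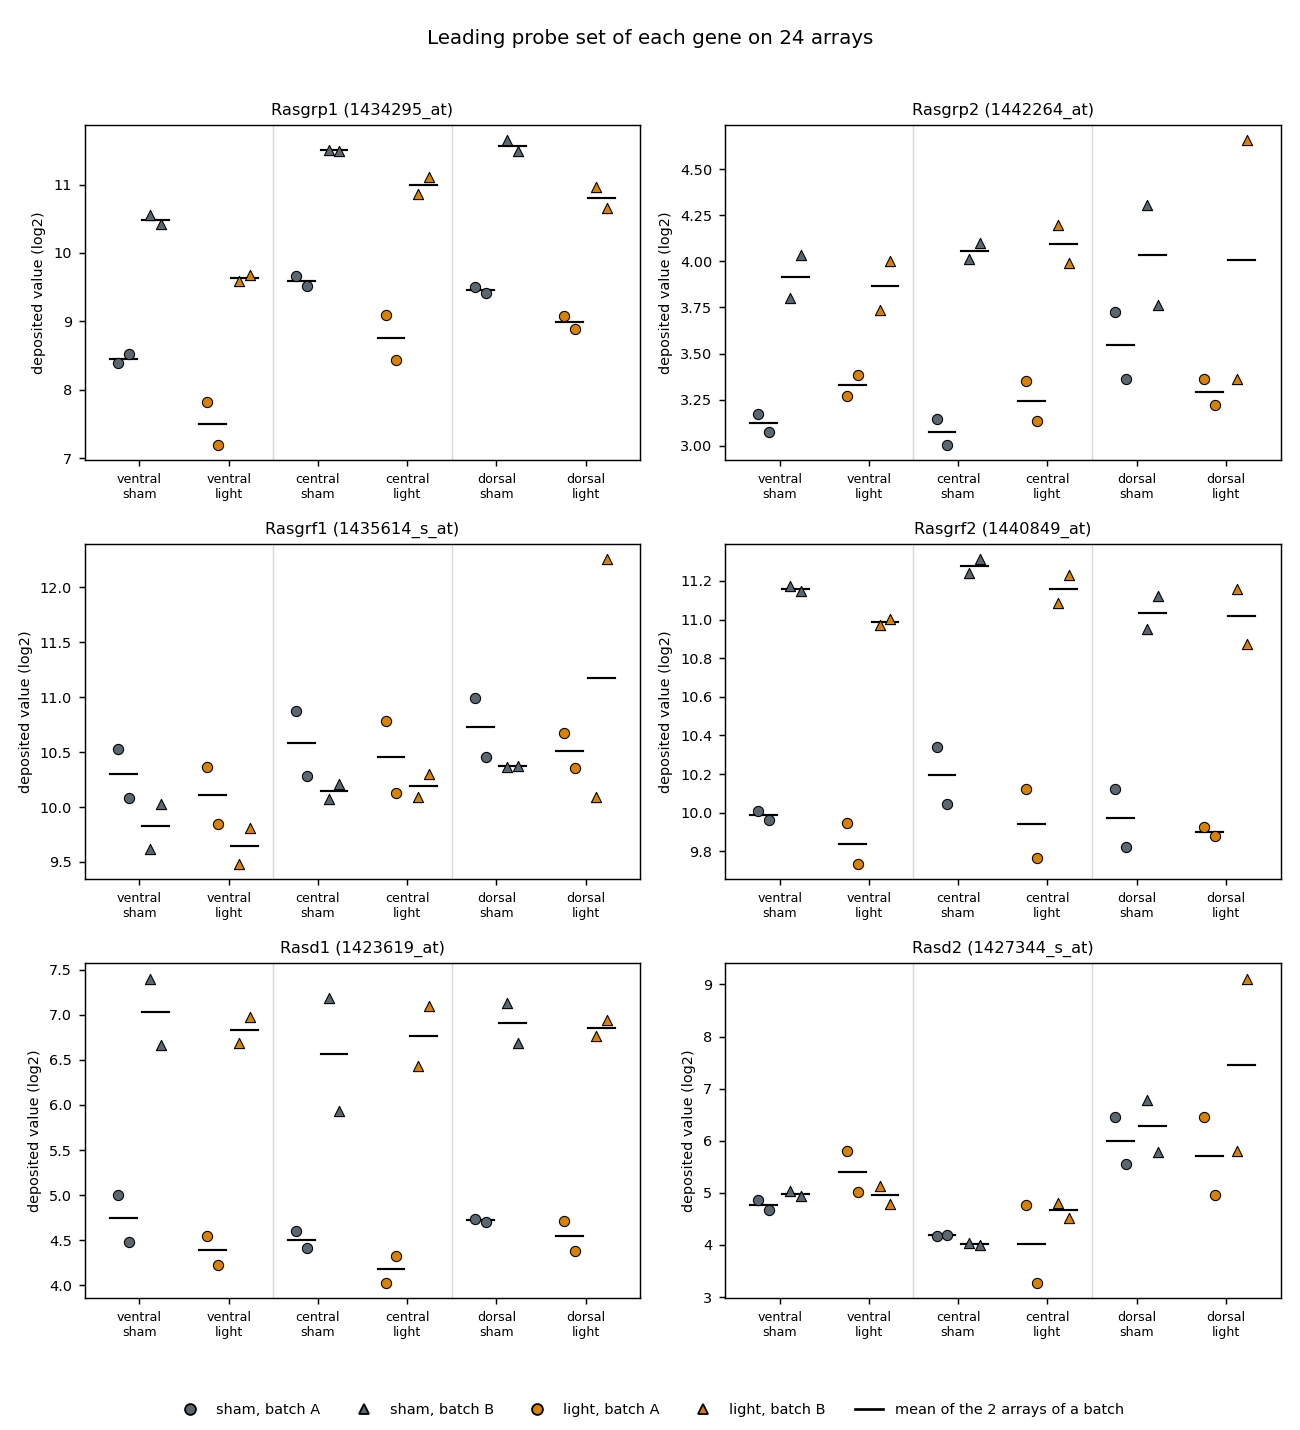
Deposited log2 value (vertical axis) of the leading probe set of each of the 6 genes on each of the 24 arrays, by region and treatment (horizontal axis). Circles are batch A, triangles batch B, and a short line is the mean of the 2 arrays of a batch. The Rasgrp1 light arrays lie below the sham arrays of their batch in all 3 regions, and the highest points of Rasgrf1, Rasgrp2 and Rasd2 are all array 4 of the dorsal light group.

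Rasgrp1 encodes an exchange factor for Ras that diacylglycerol recruits to membranes, first described in brain and in T cells. The gene lies on chromosome 2, and its RefSeq promoter window, 300 bases around the annotated start on the minus strand (GRCm38.p6, chr2:117342828-117343127), is shown because this is the gene of the set that fell with light. It holds no match to any of 4 motifs searched on both strands, the cAMP response element TGACGTCA, its core TGACG, the E-box CACGTG and the EGR site GCGTGGGCG.
Rasgrp1 promoter: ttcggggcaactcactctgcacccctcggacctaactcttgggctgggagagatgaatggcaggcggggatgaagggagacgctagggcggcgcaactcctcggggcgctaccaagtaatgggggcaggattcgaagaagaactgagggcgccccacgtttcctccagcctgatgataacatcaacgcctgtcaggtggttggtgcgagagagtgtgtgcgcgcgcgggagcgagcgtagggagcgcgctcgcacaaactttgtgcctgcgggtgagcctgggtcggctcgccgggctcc

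In the ventral SCN, Rasgrp1 read 8.39, 8.52, 10.55 and 10.42 on sham arrays 1 to 4, and 7.82, 7.19, 9.59 and 9.68 on light arrays 1 to 4. All 4 light arrays lay below every sham array of their batch. The fall was -0.90 ± 0.158 on the log2 scale, or 1.87-fold, with a 95% interval from -1.23 to -0.57 and an adjusted p of 0.00424; it was -0.95 within batch A and -0.85 within batch B. Leaving out any 1 array gave -1.0 to -0.77, with adjusted p from 0.00103 to 0.0293. Separation of light from sham arrays within both batches, here and below, is a description and not a test. Rasgrf2 separated this way in the ventral SCN without passing, and the share of all genes that did so is not given.

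In the central SCN, the sham arrays read 9.66, 9.51, 11.50 and 11.50 and the light arrays 9.09, 8.44, 10.87 and 11.11. In the dorsal SCN, the sham arrays read 9.50, 9.41, 11.65 and 11.49 and the light arrays 9.08, 8.89, 10.97 and 10.65. Here too each light array lay below both sham arrays of its batch, but neither region's difference passed: -0.67 ± 0.158 in the central SCN (adjusted p = 0.0658) and -0.61 ± 0.158 in the dorsal SCN (adjusted p = 0.161). The central value passed when dorsal light array 4 or ventral light array 2 was left out of the fit, with adjusted p of 0.019 and 0.0494, while the value itself stayed at -0.67. It also passed with the replicate number as a block (adjusted p = 0.029), although light and sham arrays, which the labels do not pair, share that block. Averaged over the regions, Rasgrp1 differed by -0.73 ± 0.140 (adjusted p = 0.0689, 4 against 4 composite values; 0.0354 with the block). The difference between the ventral and the dorsal light effect was -0.29, with an interval from -0.75 to 0.18 (-0.38 ± 0.213 without dorsal light array 4, adjusted p = 1), so these arrays do not place the fall in 1 region.

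The other 3 Rasgrp1 probe sets were below 4 on all 12 arrays of batch A, and none passed. Their light effects were negative in all 3 regions, from -0.17 to -0.31 in the ventral, -0.29 to -0.57 in the central and -0.43 to -1.0 in the dorsal SCN. The mean of all 4 probe sets gave -0.40 in the ventral SCN and did not pass (adjusted p = 0.898).

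Some cell markers moved with the pulse in the ventral SCN, and their part in the Rasgrp1 result was not tested. The mean of the 9 astrocyte markers, centred within batches, lay between 0.45 and 0.56 on the ventral light arrays and between 0.23 and 0.41 on the sham arrays. However, 3 of the 9 were higher and 6 lower with light, with a median difference of -0.03. Only 1 of the 9, Gfap, an intermediate filament, passed (1.28 ± 0.263, adjusted p = 0.018). The mean of 6 markers of SCN shell neurons lay between -0.19 and 0.22 on light and between -0.59 and -0.27 on sham arrays, and 2 of the 6 passed, C1ql3 (1.18 ± 0.233, adjusted p = 0.0135) and the peptide gene Prok2 (2.61 ± 0.557, adjusted p = 0.0235). By direction, 3 of these 6 were higher and 3 lower with light, with a median difference of 0.01. The 7 markers of the SCN in general also lay apart, at 0.03 to 0.13 against -0.30 to -0.03, with 0 of 7 passing (4 at an unadjusted p under 0.05), as did 3 striatal markers, at 0.25 to 1.25 against -0.22 to 0.06, with 0 of 3 passing (1 unadjusted). Of the general SCN markers 4 were higher and 3 lower with light, and of the striatal markers 3 were higher and 0 lower. The opioid peptide gene Penk, 1 of 7 core markers (1.04 ± 0.212, adjusted p = 0.0173), and the intermediate filament gene Vim, 1 of 4 ependymal markers (1.60 ± 0.301, adjusted p = 0.00849), passed too, in lists whose means overlapped. The 11 oligodendrocyte markers overlapped, at 0.69 to 1.32 against 0.63 to 1.37, and 0 of 11 passed (0 at an unadjusted p under 0.05). The 10 general neuronal markers also overlapped, at -0.21 to -0.09 against -0.18 to -0.01, and 0 of 10 passed (1 at an unadjusted p under 0.05).

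**Figure D2:**
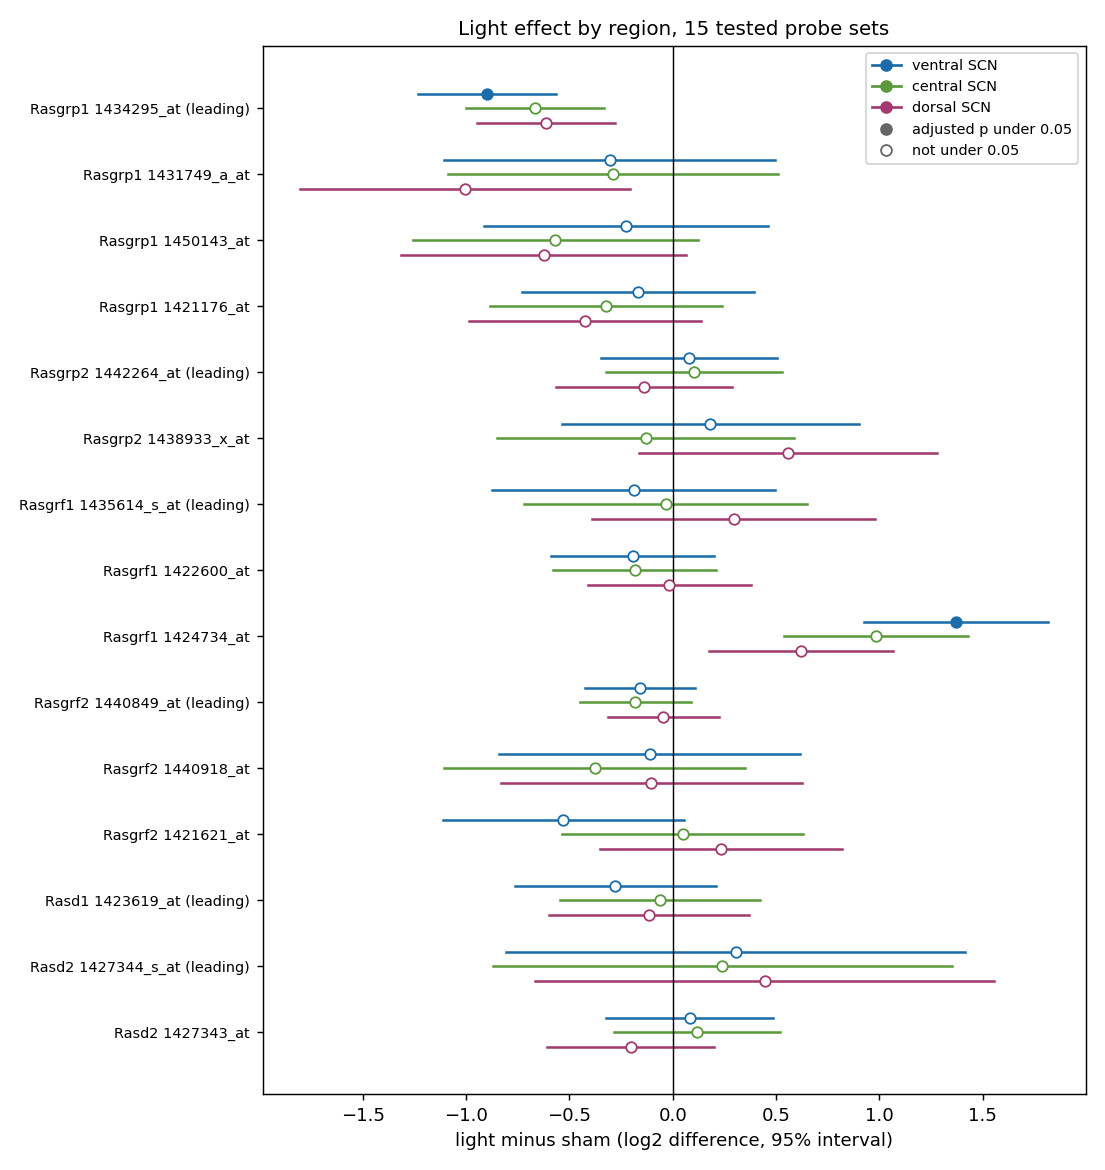
Light minus sham (horizontal axis, log2 difference with 95% interval) for the 15 tested probe sets of the 6 genes (vertical axis), in the ventral, central and dorsal SCN, from the fit over all probe sets. Filled points have an adjusted p under 0.05: Rasgrp1 1434295_at at -0.90 and Rasgrf1 1424734_at at 1.37, both in the ventral SCN.

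Rasgrf1 encodes a calcium- and calmodulin-regulated exchange factor of neurons and is imprinted in mice, where the paternal copy is expressed in brain. It lies on chromosome 9, and its RefSeq promoter window on the plus strand (GRCm38.p6, chr9:89909525-89909824) is shown because a probe set of this gene rose with light. Capitals mark its single motif match, the TGACG core read on the opposite strand, at position -145 from the annotated start; 20.8% of 32851 RefSeq promoter windows of this length hold that core.
Rasgrf1 promoter: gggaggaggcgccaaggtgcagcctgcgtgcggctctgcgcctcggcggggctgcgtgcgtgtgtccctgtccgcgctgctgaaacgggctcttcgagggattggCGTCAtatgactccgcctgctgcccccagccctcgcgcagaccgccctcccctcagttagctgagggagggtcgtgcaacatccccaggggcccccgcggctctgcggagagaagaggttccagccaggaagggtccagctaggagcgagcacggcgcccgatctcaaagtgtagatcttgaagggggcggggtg

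The 3 Rasgrf1 probe sets disagree about light. The leading one, 1435614_s_at, read 10.53, 10.09, 9.62 and 10.03 on the ventral sham arrays and 10.36, 9.85, 9.48 and 9.81 on the ventral light arrays, and the groups overlap in both batches. Its light effect was -0.19 ± 0.329 in the ventral, -0.03 ± 0.329 in the central and 0.29 ± 0.329 in the dorsal SCN, with adjusted p of 1, 0.995 and 0.712. The dorsal value turned to -0.24 ± 0.192 without dorsal light array 4, which read 12.26 where the other 3 dorsal light arrays read 10.67, 10.35 and 10.09. The second probe set, 1422600_at, also bright, differed by -0.19 ± 0.190, -0.19 ± 0.190 and -0.02 ± 0.190 in the 3 regions and did not pass.

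The dimmer probe set 1424734_at was picked out after its values were seen. It read 5.26, 4.91, 6.16 and 6.17 on the ventral sham arrays and 6.76, 6.31, 7.50 and 7.39 on the ventral light arrays. Every light array was higher than both sham arrays of its batch, by more than 1 log2 unit. In a fit over all 30983 probe sets that passed the filter, it rose 2.59-fold (1.37 ± 0.215, interval 0.92 to 1.82, adjusted p = 0.00253), with a range of 1.24 to 1.46 when any 1 array was left out. Of the 15 tested probe sets of the 6 genes, 2 passed in that comparison, this one and the Rasgrp1 one (-0.90, adjusted p = 0.00738), where 0.391% of all probe sets did.

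In the central SCN, 1424734_at read 6.01, 5.45, 7.05 and 6.72 on sham and 6.80, 6.47, 8.03 and 7.86 on light arrays, again without overlap within a batch. The difference of 0.98 ± 0.215 missed the threshold (adjusted p = 0.0602); it passed without dorsal light array 4 (adjusted p = 0.0048) or dorsal light array 3 (adjusted p = 0.0351). In the dorsal SCN, it read 6.18, 5.75, 7.49 and 7.37 on sham and 6.81, 6.40, 7.44 and 8.62 on light arrays, which overlap in batch B, and the difference was 0.62 ± 0.215 (adjusted p = 0.435), or 0.38 ± 0.185 without dorsal light array 4 (adjusted p = 0.655). None of the 15 probe sets passed in the central or the dorsal SCN, where 0.239% and 0.0839% of all probe sets did. At an unadjusted p under 0.05, 2 and 3 of the 15 did, among them the leading Rasgrp1 probe set and 1424734_at. No share over all probe sets at that unadjusted threshold is given. Averaged over the regions the rise of 1424734_at was 0.99 ± 0.160 (adjusted p = 0.0451), the only 1 of the 15 probe sets to pass, where 0.213% of all did. Leaving out any 1 of the 8 composite values ended that call, with adjusted p from 0.0692 to 0.241. The light effect was larger in the ventral than in the dorsal SCN by 0.75 ± 0.304 (unadjusted p = 0.0215), but the test of a difference between the 3 regions gave an unadjusted p of 0.0671 and an adjusted p of 1. Without dorsal light array 4 these became 0.99 ± 0.252 (unadjusted p = 0.000723) and an unadjusted p of 0.00281, with adjusted p of 0.973 and 1.

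The probe set 1424734_at carries the GenBank label AF169826 in the deposited annotation, and 1422600_at the RefSeq label NM_011245. Which transcripts each one reads was not established here, so the rise is a statement about this probe set and not about total Rasgrf1. The suffix s_at of the leading probe set means that its probes can match more than 1 transcript.

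**Figure D3:**
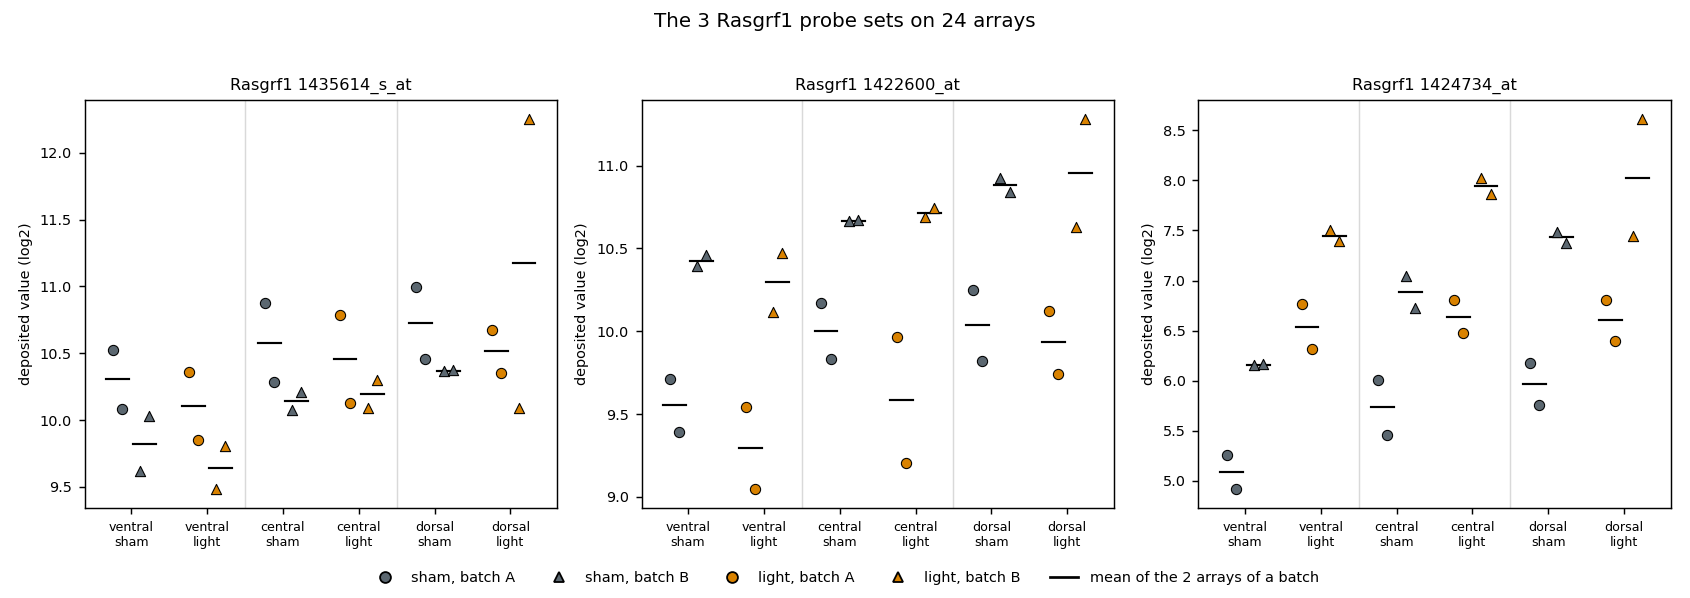
Deposited log2 value (vertical axis) of the 3 Rasgrf1 probe sets on the 24 arrays, by region and treatment (horizontal axis), with batches and means drawn as circles, triangles and short lines. In 1424734_at the ventral and central light arrays lie above the sham arrays of their batch, while in the other panels light and sham arrays of a batch lie close together, and dorsal light array 4 is the highest point of batch B in all 3 panels.

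The other members gave no light call. Rasd1, whose Dexras1 protein is regulated by nitric oxide and couples to G protein signalling, read 5.00, 4.49, 7.40 and 6.66 on ventral sham and 4.55, 4.23, 6.69 and 6.97 on ventral light arrays. The groups overlap in both batches, and the effect was -0.28 ± 0.232 (interval -0.76 to 0.20, adjusted p = 1). Its effect was -0.06 ± 0.232 in the central and -0.12 ± 0.232 in the dorsal SCN; the central interval runs from -0.54 to 0.42. Rasd1 has 1 probe set, above 4 on all 24 arrays. In batch A it lay close to that limit, at 4.03 to 5.00, against 5.93 to 7.40 in batch B.

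Rasd2 read 4.86, 4.67, 5.03 and 4.94 on ventral sham and 5.80, 5.01, 5.14 and 4.78 on ventral light arrays. Its light effects of 0.31 ± 0.535, 0.24 ± 0.535 and 0.44 ± 0.535 in the ventral, central and dorsal SCN had intervals more than 2 log2 units wide and did not pass. The dorsal value became -0.38 ± 0.358 without dorsal light array 4. The other Rasd2 probe set gave 0.08, 0.12 and -0.20.

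Rasgrf2, a relative of Rasgrf1 whose protein acts on both Ras and Rac, read 10.01, 9.96, 11.17 and 11.15 on ventral sham and 9.94, 9.73, 10.97 and 11.004 on ventral light arrays. The light arrays lay below the sham arrays of their batch, by a difference of -0.16 ± 0.125 that did not pass (adjusted p = 1). In the central and dorsal SCN it differed by -0.18 ± 0.125 and -0.05 ± 0.125 (0.008 ± 0.123 in the dorsal SCN without dorsal light array 4). These are the narrowest intervals of the set, -0.42 to 0.10 in the ventral SCN.

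Rasgrp2 encodes CalDAG-GEFI, an exchange factor that acts mainly on Rap1 and is known from platelets and striatum. Its leading probe set stayed below 4 on all 12 arrays of batch A and exceeded 4 on 6 of the 12 of batch B, and 2 of its 4 probe sets failed the filter. The leading probe set spanned 3.00 to 3.73 in batch A and 3.36 to 4.66 in batch B, the highest on dorsal light array 4. Its light effects lay between -0.14 and 0.10 and none passed; without dorsal light array 4 the dorsal value was -0.37 ± 0.175 (adjusted p = 0.686).

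The second question is how the levels differ between the regions, with 8 arrays of each and both treatments pooled. Of the 6 genes, 2 were lower in the ventral than in the dorsal SCN, Rasgrp1 and Rasd2, where 4.61% of all genes passed in either direction. Rasgrp1 alone was lower in the ventral than in the central SCN (5.2% of all genes passed) and Rasd2 alone was lower in the central than in the dorsal SCN (7.11% of all genes passed). None was higher in the first-named region of these pairs. The median difference of the 6 was -0.45, -0.10 and -0.18 in these comparisons, against 0.01, 0.05 and -0.05 over all genes.

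The leading Rasgrp1 probe set was lowest in the ventral SCN. Centred on the mean of each batch, its level was -0.79 ± 0.514 (SD, n = 8) in the ventral, 0.40 ± 0.414 in the central and 0.39 ± 0.356 in the dorsal SCN. The ventral level was 2.27-fold below the dorsal (-1.19 ± 0.112 SE, adjusted p = 3.15e-07), and no ventral array reached a dorsal array of its batch. It was 2.28-fold below the central level (-1.19 ± 0.112, adjusted p = 4.41e-07); here central light array 2, at 8.44, lay below ventral sham array 2, at 8.52. Central and dorsal levels differed by 0.00 ± 0.112, with an interval from -0.23 to 0.24 (-0.04 ± 0.106 without dorsal light array 4). Counting sham arrays alone, the ventral arrays read 8.39 to 8.52 in batch A, against 9.41 to 9.66 in the other regions. The dimmer Rasgrp1 probe sets were also lowest in the ventral SCN, but no difference passed. They gave -0.50 to -0.09 for ventral against dorsal and -0.81 to -0.47 for ventral against central SCN. For central against dorsal SCN they gave 0.31 to 0.38.

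Rasd2 was highest in the dorsal SCN and lowest in the central SCN. Its leading probe set read 6.45, 5.54, 6.78 and 5.78 on the dorsal sham arrays and 4.18, 4.20, 4.04 and 3.99 on the central sham arrays. On light arrays it read 6.45, 4.97, 5.80 and 9.11 in the dorsal and 4.77, 3.27, 4.80 and 4.53 in the central SCN. All dorsal arrays lay above all central arrays of their batch, and the central level was 4.41-fold lower (-2.14 ± 0.378, adjusted p = 0.000737). Without dorsal light array 4, at 9.11 the highest Rasd2 value of all, the difference was -1.73 ± 0.243 (adjusted p = 5.41e-05).

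The ventral level of Rasd2 was 2.52-fold below the dorsal (-1.33 ± 0.378, adjusted p = 0.044). This call was lost when any 1 of 17 of the 24 arrays was left out, with adjusted p of up to 0.104, while without dorsal light array 4 it was smaller but passed (-0.92 ± 0.243, adjusted p = 0.0255). In batch A the ventral and dorsal arrays overlap, and in the fit over all probe sets the same difference did not pass (adjusted p = 0.0649). The ventral level exceeded the central one by 0.81 ± 0.378 (adjusted p = 0.359); without dorsal light array 4 the same difference passed (adjusted p = 0.0327). The second Rasd2 probe set, 1427343_at, below 4 on all arrays of batch A, had the same order of regions, with -0.65 ± 0.137 for central against dorsal (adjusted p = 0.00607) and -0.33 ± 0.137 for ventral against dorsal, which did not pass (adjusted p = 0.306).

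**Figure D4:**
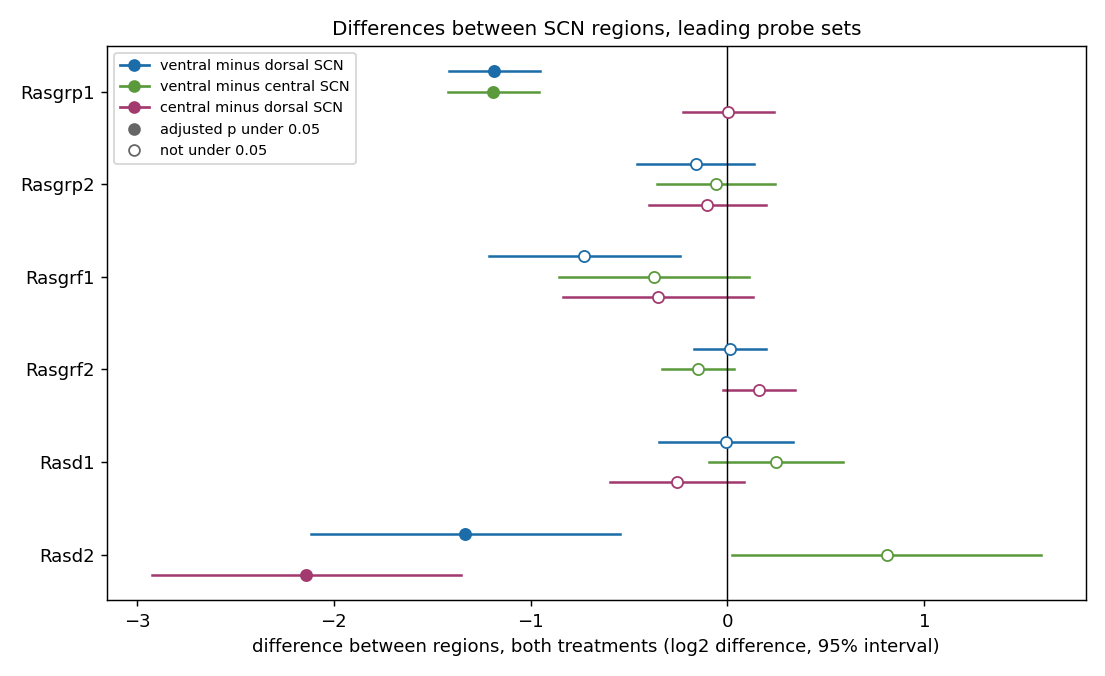
Differences between SCN regions (horizontal axis, log2 difference with 95% interval, light and sham groups averaged) for the leading probe set of each of the 6 genes (vertical axis). Filled points have an adjusted p under 0.05: Rasgrp1 is lower in the ventral SCN against both other regions, and Rasd2 is higher in the dorsal SCN against both other regions.

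The leading Rasgrf1 probe set was lowest in the ventral and highest in the dorsal SCN, with centred levels of -0.37 ± 0.283, 0.01 ± 0.260 and 0.36 ± 0.708 (SD, n = 8) in the ventral, central and dorsal SCN, but no pair passed. The dorsal mean includes dorsal light array 4 at 2.03, and without that array the central level differed from the dorsal by -0.08 ± 0.131 (adjusted p = 0.793) in place of -0.35 ± 0.233. The ventral level differed from the dorsal by -0.73 ± 0.233 (adjusted p = 0.0866). With the replicate number as a block, which light and sham arrays share, the same difference passed (adjusted p = 0.029). In all it passed in 3 of 11 alternatives other than leaving out arrays, with adjusted p down to 0.0116. Without dorsal light array 4 it was -0.46 ± 0.131 (adjusted p = 0.0422), while without dorsal light array 2 or 3 it was -0.83 and -0.84 (adjusted p = 0.045 and 0.0362). Both other Rasgrf1 probe sets were lower in the ventral than in the dorsal SCN in the fit over probe sets, with a difference of -0.56 ± 0.134 for 1422600_at (adjusted p = 0.0215) and of -0.70 ± 0.152 for 1424734_at (adjusted p = 0.0098); both passed without dorsal light array 4 as well (-0.49 and -0.58).

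Among the 15 tested probe sets, 3 passed for ventral against dorsal SCN (these and the Rasgrp1 one), where 2.7% of all probe sets did. The leading Rasd2 probe set, which passed in the fit over genes (adjusted p = 0.044), did not pass here (-1.33 ± 0.379, adjusted p = 0.0649). For ventral against central SCN 1 passed, that of Rasgrp1 (2.87% of all probe sets), with 1424734_at at -0.49 ± 0.152 (adjusted p = 0.0992) passing only with the block (adjusted p = 0.0397), without dorsal light array 4 (adjusted p = 0.016) or in other settings given at the end. For central against dorsal SCN 2 passed, both of Rasd2 (4.01% of all probe sets).

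Rasd1, Rasgrf2 and Rasgrp2 did not differ between regions beyond the test. The largest of their differences were -0.26 ± 0.164 for Rasd1 between central and dorsal SCN (adjusted p = 0.415), 0.16 ± 0.088 for Rasgrf2 in the same pair (adjusted p = 0.335) and -0.16 ± 0.143 for Rasgrp2 between ventral and dorsal SCN (adjusted p = 0.634), which was -0.05 ± 0.119 without dorsal light array 4. Their order of levels is therefore not resolved.

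**Figure D5:**
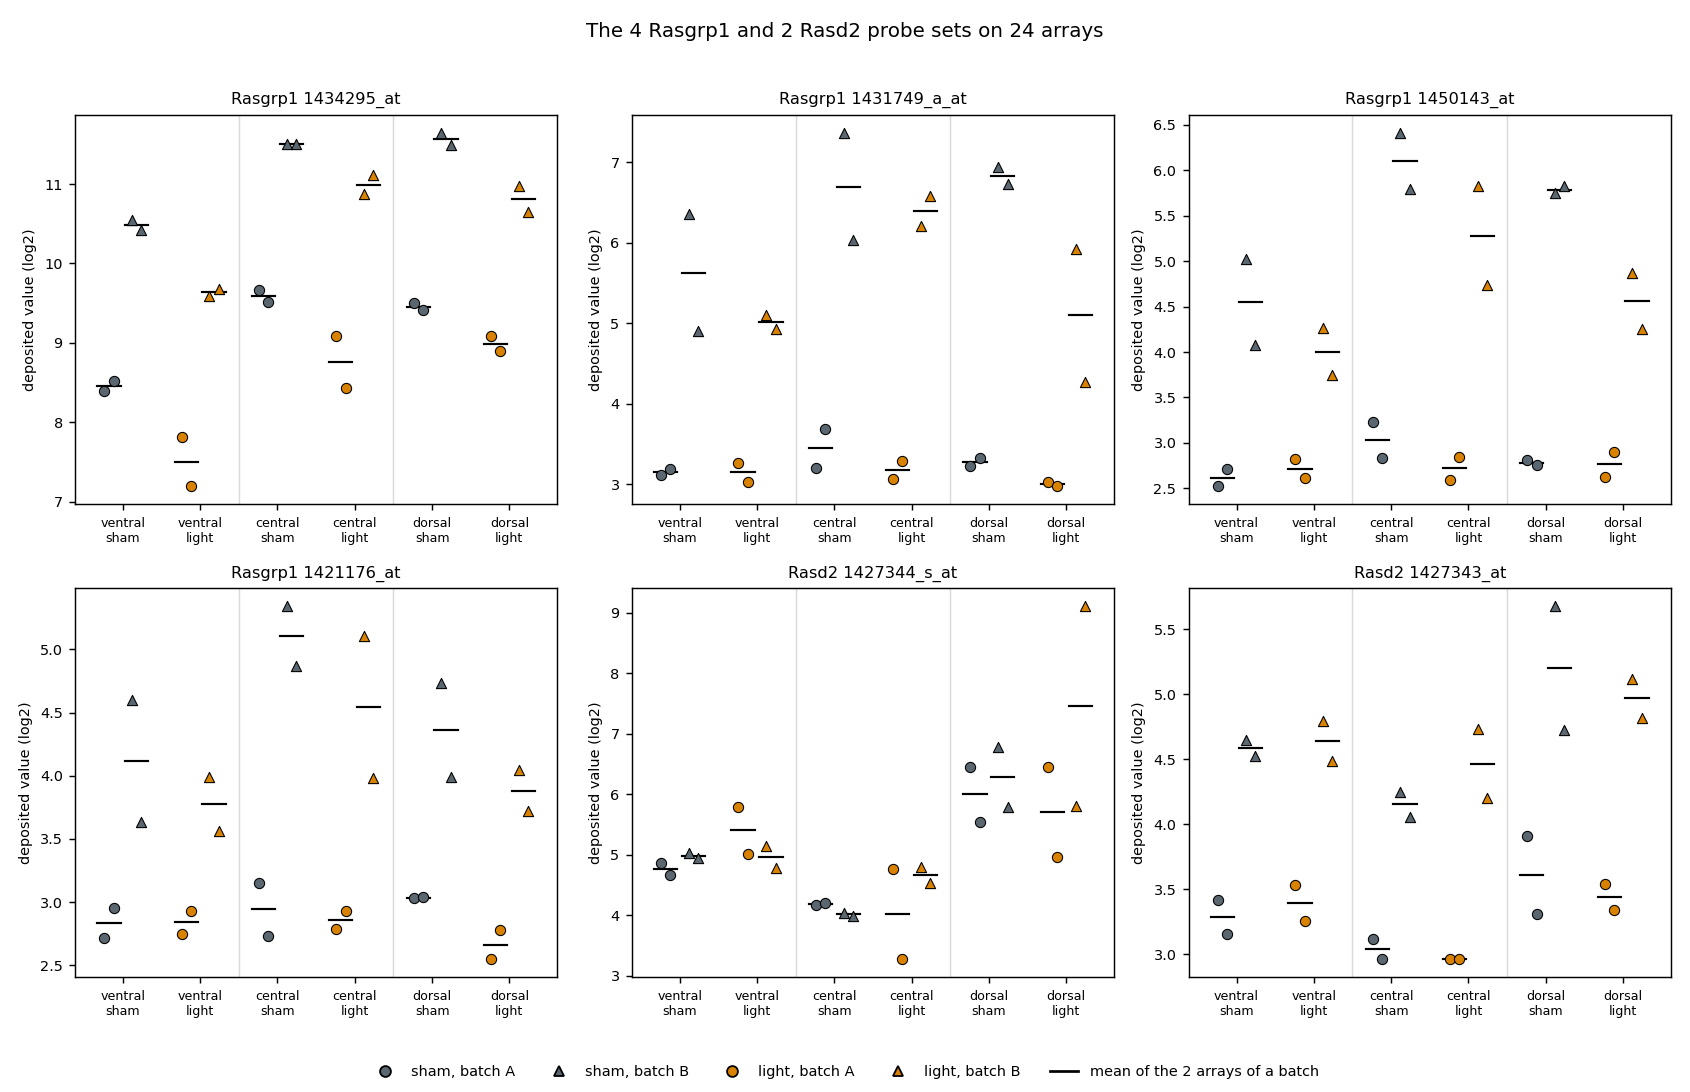
Deposited log2 value (vertical axis) of the 4 Rasgrp1 and the 2 Rasd2 probe sets on the 24 arrays, by region and treatment (horizontal axis), with batches and means drawn as circles, triangles and short lines. The 3 dimmer Rasgrp1 probe sets and Rasd2 1427343_at lie below 4 on all batch A arrays, and in both Rasd2 panels the means of the central groups are the lowest of each batch.

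Cell markers also differed between the regions, and their part in the Rasgrp1, Rasd2 and Rasgrf1 differences was not tested. Of the 7 core markers, 4 were higher and 2 lower in the ventral than in the dorsal SCN. Against the central SCN, 1 was higher and 2 were lower in the ventral, and 3 were higher and 3 lower in the central than in the dorsal SCN. Of the 6 shell markers, 1 was lower in the ventral and 1 lower in the central than in the dorsal SCN. All 11 oligodendrocyte markers were higher in the ventral than in the central SCN, 6 of 11 were higher in the ventral than in the dorsal SCN, and 9 of 11 were lower in the central than in the dorsal SCN. Their mean, centred within batches, lay at 0.63 to 1.37 on ventral, -1.57 to -0.79 on central and -0.22 to 0.44 on dorsal arrays. Of the 9 astrocyte markers, 6 were higher in the ventral than in the central SCN and 3 higher than in the dorsal SCN. Of 9 markers of neighbouring hypothalamic neurons, 4 were lower in the central and 3 lower in the ventral than in the dorsal SCN; Sst, the somatostatin gene, differed by -4.71 ± 0.423 and -5.26 ± 0.423. By median difference, several lists had the order of regions that Rasd2 had. These were the markers of neighbouring hypothalamic neurons, striatal neurons, general neurons, microglia and ependymal cells. The microglia mean lay at -0.19 to 0.33 on ventral, -0.49 to -0.10 on central and -0.03 to 0.92 on dorsal arrays, the highest on dorsal light array 4. Of the 8 microglia markers, 2 were lower in the central than in the dorsal SCN, and 0 passed for ventral against dorsal or ventral against central. Of the 8 endothelial and mural markers, 4 were lower in the central than in the dorsal SCN and 4 higher in the ventral than in the central SCN. Of the 10 general neuronal markers, 2 were lower in the ventral and 2 lower in the central than in the dorsal SCN. Of the 5 striatal markers with a probe set, the dopamine receptor gene Drd1 was above 4 on all 24 arrays, Pde10a on 11 of batch A and 12 of batch B and Tac1 on 2 and 8, while Drd2 and Ppp1r1b were above 4 on 0 of batch A and on 1 and 2 of batch B.

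There were 6 lists of other pathway genes beside the members, 98 tested genes in all. With light in the ventral SCN, 1 of the 98 passed: Rheb, the Ras-like GTPase that activates mTOR, rose 1.49-fold (0.58 ± 0.112, adjusted p = 0.0111). None of the 98 passed in the central SCN (Rheb 0.33 ± 0.112, adjusted p = 0.336), in the dorsal SCN or averaged over the regions. There 7, 15 and 13 had an unadjusted p under 0.05 in limma, with no share over all genes to set beside them. The median light effect of the 98 was -0.02, -0.15 and -0.08 in the ventral, central and dorsal SCN. The RAF, MEK and ERK genes were among them, with 0 of 12 passing in every comparison of light or region and 0 to 4 of 12 at an unadjusted p under 0.05.

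Between regions the same lists held more calls. For ventral against dorsal SCN 9 of the 98 passed, 2 higher and 7 lower in the ventral; for ventral against central 6 passed, 3 in each direction; for central against dorsal 13 passed, 2 higher and 11 lower in the central. These are 9.18%, 6.12% and 13.3%, beside 4.61%, 5.2% and 7.11% of all genes, and the excess was not tested. Without dorsal light array 4, 3 of the named calls below were lost, those of Rapgef6 (adjusted p = 0.0526) and Sipa1l1 (adjusted p = 0.0747) for central and of Gem (adjusted p = 0.0561) for ventral against dorsal SCN.

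Among other exchange factors, 0 of 14 were higher in any of these comparisons: Rapgef5, which acts on Rap, was lower in the ventral (-0.90 ± 0.166, adjusted p = 0.00141) and central SCN (-0.77 ± 0.166, adjusted p = 0.00466) than in the dorsal, and Rapgef6 was lower in the central SCN (-0.61 ± 0.174, adjusted p = 0.032). Of 22 Ras-family GTPases, Gem, an inhibitor of calcium channels, was lower in the ventral (-1.08 ± 0.300, adjusted p = 0.0376) and central SCN (-1.16 ± 0.300, adjusted p = 0.018), and Rerg (-1.51 ± 0.273, adjusted p = 0.000887) and Rasl10b (-0.68 ± 0.185, adjusted p = 0.0247) were lower in the central SCN, each against the dorsal. Of 12 GTPase-activating proteins, which turn Ras or Rap off, Rap1gap was lower in the ventral (-0.97 ± 0.248, adjusted p = 0.023) and central SCN (-0.94 ± 0.248, adjusted p = 0.0207) than in the dorsal. Sipa1l1 was lower in the central than in the dorsal SCN (-0.44 ± 0.136, adjusted p = 0.0496), and Rasa3 was higher in the ventral than in the central SCN (0.62 ± 0.166, adjusted p = 0.0298).

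Of 19 partners of Dexras1 and Rhes, 2 differed from the dorsal SCN in both other regions. Nos1, the neuronal nitric oxide synthase that Dexras1 is coupled to, was lower in the ventral (-1.09 ± 0.233, adjusted p = 0.00524) and central SCN (-1.02 ± 0.233, adjusted p = 0.00704). Adcy3, an adenylyl cyclase, was higher in the ventral (0.71 ± 0.147, adjusted p = 0.00377) and central SCN (0.59 ± 0.147, adjusted p = 0.0144). Rasd1 itself differed by -0.01 ± 0.164 between ventral and dorsal SCN (0.007 ± 0.169 without dorsal light array 4).

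A list of 19 tested genes covers calcium and diacylglycerol signalling, with NMDA receptor subunits, calmodulins, phospholipases C, protein kinases C and diacylglycerol kinases. Of these, the NMDA receptor subunit gene Grin3a was lower in the ventral SCN than in the dorsal (-0.90 ± 0.173, adjusted p = 0.00208) and the central (-1.25 ± 0.173, adjusted p = 5.36e-05). Grin2d was also lower in the ventral SCN in both pairs (-0.57 ± 0.148 and -0.56 ± 0.148, adjusted p = 0.0242 and 0.0277). The protein kinase C gene Prkcb was lower in the ventral (-0.54 ± 0.107, adjusted p = 0.00289) and central SCN (-0.62 ± 0.107, adjusted p = 0.000578) than in the dorsal. Dgki, a kinase that removes diacylglycerol, was higher in the ventral (0.44 ± 0.117, adjusted p = 0.0293) and central SCN (0.42 ± 0.117, adjusted p = 0.0292). The remaining calls were Plcb3 (0.81 ± 0.178, adjusted p = 0.0061) and Plce1 (0.54 ± 0.156, adjusted p = 0.0458) higher and Prkce (-0.39 ± 0.104, adjusted p = 0.0258) lower in the ventral than in the central SCN, and Grin2c (-0.97 ± 0.204, adjusted p = 0.00347) and Plce1 (-0.60 ± 0.156, adjusted p = 0.0174) lower in the central than in the dorsal SCN.

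Likeness over the arrays was described by Pearson's r of values centred within batches, over 24 arrays that share batches and processing and may share animals. The genes most like Rasgrp1 were Nrp2, a semaphorin receptor (r = 0.915), Ppp1r17 (0.881) and Asic1, an acid-sensing ion channel (0.879), with r of 0.917, 0.886 and 0.879 over the 23 arrays without dorsal light array 4. Those most like Rasgrf1, Gaa (0.975), Lrpap1 (0.96) and Man2c1 (0.953), fell to 0.92, 0.871 and 0.85 without that array. For Rasd2, Ppa1, Pltp and Chchd10 had r of 0.92, 0.914 and 0.912 with it and 0.851, 0.826 and 0.823 without it. Rasd1 was most like Trpt1 (0.811), Hdac10 (0.782) and Slc2a9 (0.78), Rasgrp2 most like Slc8a2 (0.791), 8430426J06Rik (0.785) and Steap3 (0.774), and Rasgrf2 most like AW551984 (0.845), Hap1 (0.831) and Tspoap1 (0.827).

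Among the 6 genes, r between Rasgrf1 and Rasgrp1 was 0.392 over 24 arrays and 0.77 over 23 without dorsal light array 4, and r between Rasgrf1 and Rasgrf2 was 0.042 and 0.598. In the other direction, r between Rasgrf1 and Rasd2 was 0.703 with that array and 0.325 without it. Rasgrp1 and Rasgrf2 gave 0.544 and 0.559. Rasd1 had r between -0.05 and 0.32 with each of the others in either set of arrays.

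RefSeq promoter windows were matched for 5 of the 6 genes, Rasd2, Rasgrp1, Rasgrp2 (2 windows), Rasgrf1 and Rasgrf2. Beside the Rasgrf1 match, the Rasgrf2 window holds an E-box at position -47 that overlaps a TGACG core at -43, and the windows of Rasgrp1, Rasgrp2 and Rasd2 hold none of the 4 motifs. Of all 32851 windows, 1.79% hold TGACGTCA, which contains the TGACG core, 7.15% hold CACGTG and 0.612% hold GCGTGGGCG. A match is a description of the letters only.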

How the data were processed

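Expression was measured on 24 Affymetrix mouse arrays. The deposited table holds the authors' log2 values for 45101 probe sets, and GCRMA 2.32.0, R 3.0.2 and MAS5 appear in the submitters' processing notes with no role. GCRMA, where used, corrects probe background by base composition, which affects low values most. Whether the batches were normalized together is unknown. RNA was amplified before labelling, per the labels, which can compress or distort differences between transcripts.

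The platform annotation named the probe sets: 34945 had 1 symbol, 932 several, 9160 none, and 64 were controls. Of those with 1 symbol, 34741 had an Entrez identifier found in a RefSeq gene table of GRCm38.p6. For the 9010 genes with several probe sets, the brightest one on average was taken, and 13494 genes exceeded log2 4 on at least 4 arrays. The tests came from limma 3.58.1 under R 4.3.3 (eBayes after lmFit, two-sided, Benjamini-Hochberg over all genes tested), with 6 group means and the batch as a term (17 residual and 4.7 prior degrees of freedom). The averaged light effect used 8 composites, each averaging the 3 regions of a treatment at 1 replicate number (5 residual and 5.7 prior degrees of freedom). A passed test means an adjusted p under 0.05, and errors are standard errors unless SD is stated. A second fit over 30983 probe sets was added after the values of the Rasgrf1 probe sets were seen. Fits without dorsal light array 4 for the other probe sets, the differences between light effects and the listed genes were also chosen after seeing the data. The procedure was tested on simulated data. The number of arrays limits the precision.

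Deviations of arrays with the same number from their group means correlated at 0.185 to 0.623 in all 12 pairs of regions of 1 treatment. Between light and sham arrays of 1 region they correlated at 0.096 to 0.400, with 5 of 6 above 0.1. Groups that differ in both region and treatment gave 0.101 to 0.422, with 12 of 12 above 0.1. Arrays of 1 number thus tended to deviate together in every kind of pair. By median they did so more between regions of 1 treatment (0.405) than in either other kind (0.242). Whether they share an animal cannot be told from this. The main fit treats no arrays as pairs, and the replicate block gives all arrays of 1 number a common term.

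The 6 genes, the gene lists and the tests were chosen with earlier results of these data known. Named beside the 6 genes are, for each pathway list, the genes that passed (at most 6, by smallest p) and for each gene the 3 genes with the highest correlation. Alternatives covered the batch term, a replicate block, scaling, filters, the choice of probe set, array weights, each batch or region alone, sham arrays alone and each array left out.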

Additional observations from a re-analysis of the deposited data

Results flagged for a closer look

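Of 36 sets of 4 arrays examined (6 genes in 6 groups, values centred within batches), 1 held an array far from the others, where chance gives about 1 in 20. The leading Rasgrf1 probe set on dorsal light array 4 read 12.26 on the log2 scale, 2.03 above its batch mean, and its gap to the nearest of the other 3 arrays was 0.835 of the range of the group. On this array the ends of Gapdh differed by 5.41, and its median correlation with its batch was 0.913. The part of that array's quality in the Rasgrf1 value was not tested. The probe set 1422600_at of the same gene read 11.28 there and 1424734_at read 8.62, each the highest value of its probe set in the dorsal light group.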

How the results depend on the processing

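Of 483 values of the 6 genes and of Rasgrf1 1424734_at under alternatives other than leaving out arrays, 409 kept their direction and their side of the threshold, 26 no longer passed, 21 passed newly and 27 changed sign; except where named here, the cause was not tested. No called difference changed sign. A count below is the number of the 6 genes that passed. Without a batch term, all values that had passed kept their size and none passed (Rasgrp1 -0.90 for ventral light, -1.19 for ventral against central and -1.19 against dorsal SCN; Rasd2 -1.33 for ventral and -2.14 for central against dorsal; 1424734_at 1.37 for ventral light, 0.99 averaged and -0.70 for ventral against dorsal), with counts of 0. Within 1 batch fewer arrays are tested: in batch A Rasgrp1 had -0.95 for ventral light, Rasd2 -1.75 and -0.77 for central and ventral against dorsal SCN, and 1424734_at 1.46 for ventral light and -0.47 for ventral against dorsal. In batch B these were -0.85, -2.53, -1.90, 1.29 and -0.93. None of these passed, which left counts of 0 for ventral light and for central against dorsal and of 1 for ventral against dorsal in either batch. With sham arrays alone Rasd2 did not pass (-2.04 for central and -1.26 for ventral against dorsal, counts 0 and 1).

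Quantile normalization gave a count of 1 for the central, dorsal and averaged light effect, each Rasgrp1 (-0.61 with adjusted p = 0.0164, -0.62 with adjusted p = 0.0217 and -0.71 with adjusted p = 0.0375), and 1 for ventral against dorsal SCN, where Rasd2 did not pass (-1.24). Array weights gave 1 for central light (Rasgrp1 -0.53), 2 for dorsal light (Rasgrp1 -0.56 and Rasgrp2 -0.65) and 3 for ventral against central SCN (Rasgrp1, Rasd2 and Rasgrf1). The stricter filter, which tests fewer genes, gave 1 for central light (Rasgrp1 -0.67), and no filter, which tests more, gave 1 for ventral against dorsal SCN (Rasd2 -1.33 did not pass) and ended the averaged call of 1424734_at (0.99), as did median centring (0.96). The mean of all probe sets gave 0 for ventral light (Rasgrp1 -0.40) and -0.52 for Rasgrp1 in ventral against dorsal SCN, which did not pass. With a replicate block, Rasgrp1 passed in the central (-0.67, adjusted p = 0.029) and averaged light effect (-0.73, adjusted p = 0.0354), a count of 1 each. The block also gave calls for Rasgrf1 and 1424734_at between regions and for 1424734_at in central light (0.98, adjusted p = 0.0189). It changed no other call of the 6 genes or of 1424734_at. The probe set 1424734_at also passed for central light with array weights (1.07), quantile normalization (1.06) and the stricter filter (0.98), and for ventral against central SCN with array weights (-0.49) and quantile normalization (-0.57).

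Over all genes, 97, 52 and 24 passed for light in the ventral, central and dorsal SCN, 55 averaged, and 622, 702 and 959 for ventral against dorsal, ventral against central and central against dorsal SCN. Counts more than 1.5 times apart from these were, in the same order, 576, 204, 353, 1374, 1390 and 1762 with array weights (not run averaged), 0, 0, 0, 0, 4, 9 and 7 without a batch term, 10, 8, 2, 153, 199 and 185 in batch A, 7, 5, 0, 124, 176 and 214 in batch B, 196, 18 and 0 for light with the arrays of 1 region alone, and 212, 193 and 253 between regions with sham arrays alone. Quantile normalization gave 94 for central and 51 for dorsal light, and the replicate block 98, 40 and 113 for central, dorsal and averaged light. For the test between regions of the light effect, 1 gene passed, and 0 to 2 under the alternatives. Leaving out 1 array at a time gave 47 to 207, 24 to 164 and 12 to 41 for light in the 3 regions, each highest without dorsal light array 4, and 549 to 1092 for ventral against central SCN, again highest without it; leaving out 1 composite gave 13 to 57 averaged.

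Values that did not pass changed sign as follows. In batch A, Rasd2 light was -0.17 in the central and -0.29 in the dorsal SCN, Rasgrf1 dorsal light -0.21, Rasgrf2 ventral against dorsal -0.025, Rasgrp1 central against dorsal -0.047 and Rasgrp2 ventral against central 0.067. In batch B, Rasd1 was 0.20 for central light and 0.05 for ventral against dorsal, Rasd2 ventral light -0.027, Rasgrf1 central light 0.053, and Rasgrp2 0.054 for central against dorsal and -0.049 for ventral light. Array weights gave -0.39 for Rasd2 and -0.22 for Rasgrf1 in dorsal light, 0.13 for Rasgrf1 in central light, 0.067 and -0.028 for Rasgrf2 in dorsal light and ventral against dorsal, and 0.123 and 0.063 for Rasgrp2 in central and ventral against dorsal. Median centring gave -0.004 for Rasgrf1 and -0.013 for Rasgrp2 averaged, and -0.004 for Rasgrf2 in ventral against dorsal, where quantile normalization gave -0.017; sham arrays alone gave 0.073 for Rasd1 there. The mean of all probe sets gave 0.33 and 0.26 for Rasgrf1 in ventral and central light and 0.027 for Rasgrf2 in dorsal light.

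Leaving out 1 array at a time gave counts of 0 to 1 for central light, 1 to 2 for ventral against central and 1 to 3 for ventral against dorsal SCN. Rasgrp1 ranged from -0.75 to -0.52 for central light, Rasd2 from -1.58 to -0.92 for ventral against dorsal, and 1424734_at from 0.90 to 1.08 averaged. Among values that did not pass, the ranges were -0.33 to 0.11 for Rasd1, -0.16 to 0.11 for Rasgrf1 in central light; -0.38 to 0.95 for Rasd2, -0.24 to 0.52 for Rasgrf1, -0.092 to 0.020 for Rasgrf2 and -0.37 to 0.092 for Rasgrp2 in dorsal light; -0.20 to 0.17 for Rasgrf1 and -0.071 to 0.11 for Rasgrp2 averaged; -0.072 to 0.059 for Rasd1 and -0.015 to 0.045 for Rasgrf2 in ventral against dorsal; and -0.042 to 0.079 for Rasgrp1 and -0.22 to 0.01 for Rasgrp2 in central against dorsal SCN. Signal limits Rasgrp2 most, since it did not exceed 4 on any array of batch A.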
